A study of Mus musculus with 1504 samples.

Results

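The smooth muscle cells and the fibroblasts of the sorted mural fractions of adult mouse lung were compared over all genes. Both were picked, cell by cell, from the 361 columns named Mural1 (128) and Mural2 (233) of a table of 1504 single cells, and 144 cells were members. Members were chosen by the measured levels of 11 genes. A level is given in CPM, the reads of a gene per 1000000 reads of the same cell or of the summed cells. Columns were first left out where the epithelial transcripts Sftpc and Scgb1a1 together reached 10000 CPM (80 columns) or where at least 2 of the pericyte transcripts Cox4i2, Higd1b, Trpc6 and Lamc3 reached 20 CPM (77 columns). Of the 204 left, the smooth muscle side took the 62 cells with Myh11 at 500 CPM or more and Cnn1 at 50 CPM or more, 16 from Mural1 and 46 from Mural2. The fibroblast side took the 82 cells with Dcn at 500 CPM or more, Col1a1 at 50 CPM or more, Myh11 below 100 CPM and Sox9 below 50 CPM, 34 from Mural1 and 48 from Mural2. The other 60 cells belonged to neither side, and in 46 of them Sox9, a cartilage transcription factor, was at 50 CPM or more.

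The mice were C57BL/6, adult and 12 to 15 weeks old by the sample labels, and the series design text gives a wider range of ages. Cells came from lungs of transgenic reporter animals, Cldn5(BAC)eGFP, Pdgfrb(BAC)eGFP and Pdgfrb(BAC)eGFP/NG2dsRed, were sorted by flow cytometry into 384-well plates and were sequenced by SMART-seq2, a full-length method without molecular identifiers. Cldn5 drives its reporter in endothelium, whereas Pdgfrb and NG2, the product of Cspg4, mark mural and other mesenchymal cells. There are as many Mural1 and Mural2 columns as labelled samples of the Pdgfrb(BAC)eGFP/NG2dsRed genotype, but no column name gives a reporter, an animal or a plate. All 4 groups, each side in each column set, therefore count as 1 sample apiece, no test between them was possible and no p-value is given. Intervals are 95% exact intervals and cover counting error only, and reads copied in amplification are not independent molecules. In the group with the fewest reads, Mural1 smooth muscle, the Poisson interval ran from 7.40 to 13.0 CPM at a level of 10 CPM and from 91.7 to 109 CPM at 100 CPM, and it was narrower in the other groups.

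Vascular and airway smooth muscle shortens when calcium and calmodulin switch on myosin light chain kinase and smooth muscle myosin pulls on actin filaments anchored in dense bodies. Lung fibroblasts of the adventitia, the loose sheath around vessels and airways, and of the alveolar wall make the fibrillar collagens and the small proteoglycans that space them, and they secrete complement proteins, growth factors and enzymes of retinoid metabolism. Both kinds of cell are mesenchymal and express Pdgfrb, whose promoter drives the green reporter of the mural lines.

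The transcripts of the rule are given as a description, with no test. Myh11, the smooth muscle myosin heavy chain, was at 6164 against 3.24 CPM in Mural1 and 8015 against 5.46 CPM in Mural2 on the smooth muscle against the fibroblast side, and the actin-binding protein calponin, Cnn1, at 1576 against 0.0900 CPM in Mural1 and 2728 against 4.01 CPM in Mural2. Dcn, the collagen-spacing proteoglycan decorin, was at 23653 against 4.57 CPM in Mural1 and 25898 against 137 CPM in Mural2 on the fibroblast against the smooth muscle side. Col1a1, a chain of type I collagen, was at 5757 against 759 CPM in Mural1 and 6964 against 493 CPM in Mural2. The gap between the sides was wide for most thresholds. The lowest Myh11 level inside the smooth muscle side was 541 CPM. The highest in a cell that met the Cnn1 threshold alone was 90.5 CPM, in a member of the fibroblast side. On neither side, and short of the Cnn1 threshold, were cells at 256 and 434 CPM in Mural1 and 273 and 329 CPM in Mural2. A further Mural2 cell left out had Myh11 at 3652 CPM and no Cnn1 read. Dcn was at 1859 CPM in the lowest fibroblast kept and at 323 CPM in the highest cell that missed this threshold only. The narrowest boundary was Sox9, at 48.7 CPM in the last fibroblast kept and 54.2 CPM in the first cell left out. Separation was not complete in every read, since 43 of the 62 smooth muscle cells held a Dcn read, 25 of the 82 fibroblasts held a Myh11 read and 1 smooth muscle cell, from Mural2, had Dcn at 500 CPM or more. No doublet caller was run.

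**Figure D1:**
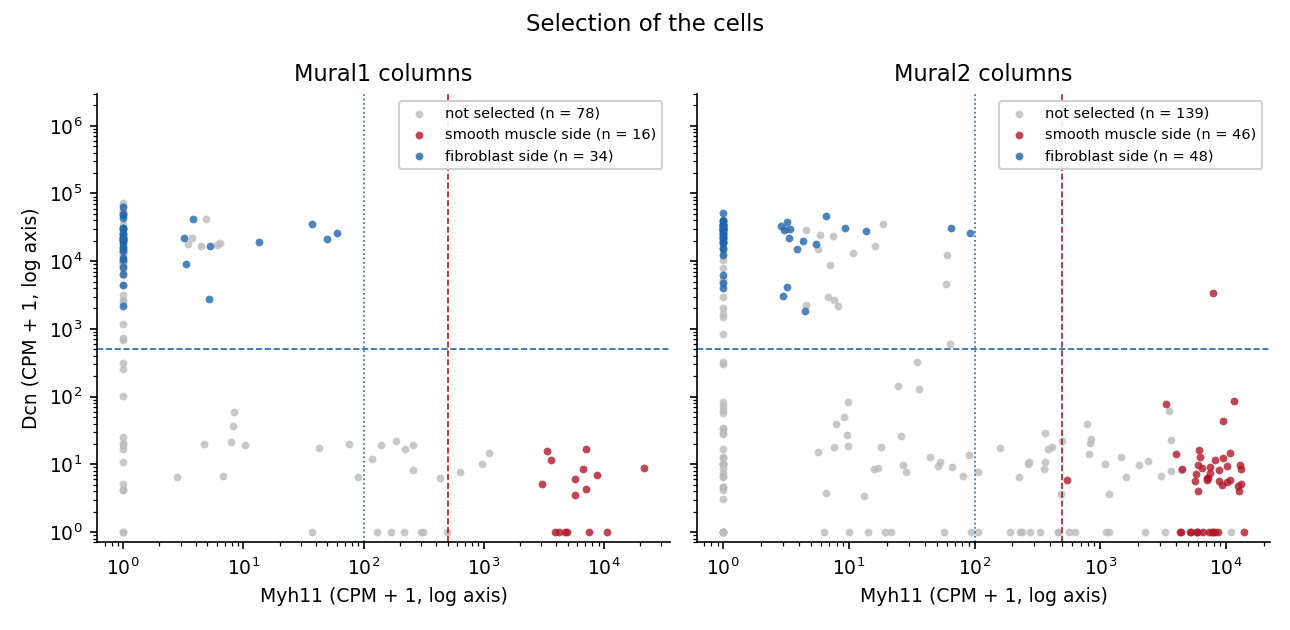
Myh11 (horizontal) and Dcn (vertical) of the single cells, as CPM + 1 on log axes, for Mural1 (left) and Mural2 (right), with points coloured by side, dashed lines at 500 CPM and a dotted line at 100 CPM of Myh11. The smooth muscle cells sit at the right from 541 CPM of Myh11 upward, and the fibroblasts at the top left from 1859 CPM of Dcn upward.

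Depth was alike on both sides in Mural1 and lower in smooth muscle in Mural2. The median number of reads per cell was 324594 and 336879 in Mural1 and 262383 and 357191 in Mural2, smooth muscle first, with 112169 to 609569 reads in single cells. After thinning every cell to 50000 reads, the median number of genes with a read lay between 3375.5 and 3497 in the 4 groups. No pair of the selected cells held identical reads. Leaving out the genes that selected the cells, 7 of 8 smooth muscle markers were higher on the smooth muscle side by the rule given below, and 8 of 9 fibroblast markers on the fibroblast side. Alveolar type 2, endothelial and leukocyte transcripts were at higher summed levels in Mural2, and chondrocyte transcripts in Mural1. Cells with a read, after thinning, of 3 or more alveolar type 2 markers numbered 1 of 16 and 15 of 46 on the smooth muscle side and 1 of 34 and 16 of 48 on the fibroblast side, Mural1 first. Their summed level was 88.2 and 99.9 CPM in Mural1 and 812 and 781 CPM in Mural2. Endothelial markers summed to 90.1 and 199.6 CPM in Mural1 and 241 and 322 CPM in Mural2, and leukocyte markers to 65.7 and 15.9 CPM and to 453 and 577 CPM, smooth muscle first. The leukocyte sums rested on few cells: the cell medians in Mural2 were 10.6 and 8.10 CPM, and without the highest cell of each group the sums were 329.6 and 246 CPM. Chondrocyte markers summed to 1523 CPM in the Mural1 fibroblasts and to 228, 104 and 12.6 CPM in the Mural1 smooth muscle, Mural2 smooth muscle and Mural2 fibroblasts, and reached 18342 CPM in 1 cell.

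Of 21948 genes in the table, 9406 had a mean level of at least 10 CPM over the 4 groups. A gene was called higher on a side when its summed level was at least 4-fold higher in Mural1 and again in Mural2 and a read was left, after thinning, in no less than 25% of the cells on the higher side. A side with under 3 reads was set to 3 reads for this purpose. By this rule 314 genes (3.34% of those tested) were higher in the smooth muscle cells and 291 (3.09%) in the fibroblasts, and 8801 were not called. In Mural1 alone 709 genes (7.54%) were higher on the smooth muscle side and 609 (6.47%) on the fibroblast side, and in Mural2 alone 468 (4.98%) and 478 (5.08%). The genes shared by the column sets made up 44.3% of the Mural1 and 67.1% of the Mural2 smooth muscle genes, and 47.8% and 60.9% of the fibroblast genes. The direction was the same in the other set for 92.7% of the 709 and 94.9% of the 468 smooth muscle genes, and for 86.7% of the 609 and 95.2% of the 478 fibroblast genes. Over all tested genes, 6219 (66.1%) had the same direction in both sets.

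**Figure D2:**
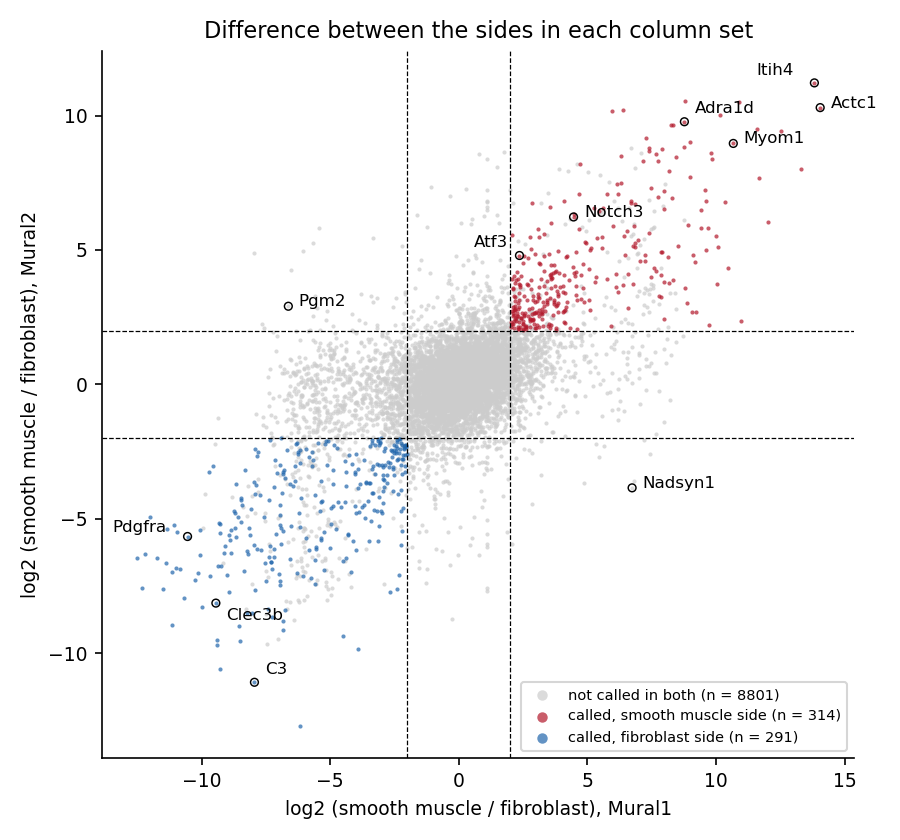
Log2 ratio of the smooth muscle to the fibroblast level in Mural1 (horizontal) and Mural2 (vertical) for the 9406 tested genes, with the 314 genes higher in smooth muscle and the 291 higher in fibroblasts coloured and 8801 others in grey. The called genes form arms at the upper right and lower left, and few genes lie far out in the other corners.

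Fewer genes differed when the same side was compared between the column sets. With the same fold and the same minimum share of cells in the higher set, 361 genes (3.84%) were called between Mural1 and Mural2 in smooth muscle and 168 (1.79%) in fibroblasts. Between the sides the corresponding counts in either direction were 1318 (14.0%) in Mural1 and 946 (10.1%) in Mural2. The median log2 ratio of all tested genes was 0.10 in Mural1 and 0.20 in Mural2. The medians of the gene lists below are to be read beside these values. The list counts are likewise to be read beside the 3.34% of tested genes called in smooth muscle and 3.09% in fibroblasts. They are counts out of the measured genes, and measured genes below the mean of 10 CPM could not be called. The genes named below are those of the rule for naming, together with further list members given as examples that were chosen after their values were seen. A summed level can rest on few cells. Each gene was therefore also taken without the highest cell of its higher side, with the share of cells counted anew. By this 242 genes remained called in smooth muscle and 248 in fibroblasts. The fold fell below 4 in 56 smooth muscle and 28 fibroblast genes, and the other losses came from the share of cells alone. Of the 182 called genes under the rule for naming and the lists, 18 were lost: Atf3, Fosb, Hey2, Hspa1a, Igfbp5, Itga1, Myc, Npnt and S1pr3 in smooth muscle, and Cdh11, Col16a1, Efemp1, Fgf7, Figf, Kcnj8, Lpl, Ltbp2 and Prrx2 in fibroblasts. This alternative was chosen after the data were seen. Ratios of single genes are between summed levels, and fold ranges in parentheses are the counting intervals.

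The contractile apparatus set smooth muscle apart. Of 34 measured genes of this list, 26 were higher in the smooth muscle cells and none in the fibroblasts, Myh11 and Cnn1 of the selection rule among the 26. The median log2 ratio of its tested members, those 2 genes included, was 3.86 in Mural1 and 3.26 in Mural2. Without those 2 genes, 24 of 32 were higher in smooth muscle. The list without them took 9.86% and 10.2% of all reads of the smooth muscle cells and 0.516% and 0.756% of those of the fibroblasts, Mural1 first. Acta2, smooth muscle α-actin (chr19:34241090-34255590, minus strand in mm10), ranged from 18027 to 59727 CPM with a median of 34094 over the 16 smooth muscle cells of Mural1 and from 0 to 2047 CPM with a median of 0 over the 34 fibroblasts. In Mural2 it ranged from 10112 to 66896 CPM with a median of 33429 in smooth muscle and from 0 to 4917 CPM with a median of 16.3 in fibroblasts. The sides did not overlap in either set, and the summed level was 505-fold (471 to 542) higher in Mural1 and 211-fold (203 to 219) in Mural2. Myl9, the regulatory myosin light chain that the kinase phosphorylates, ranged from 4832 to 24001 CPM with a median of 8566 against a range from 0 to 779 CPM with a median of 30.0 in Mural1, and from 3873 to 13494 CPM with a median of 9673 against a range from 0 to 1468 CPM with a median of 110.1 in Mural2, again without overlap, a difference of 93.0-fold (87.6 to 98.9) and 52.4-fold (50.6 to 54.3). Des, the intermediate filament desmin, ranged from 1199.6 to 6631 CPM with a median of 3459.9 in Mural1 and from 535 to 10143 CPM with a median of 2789 in Mural2 in smooth muscle, while no fibroblast exceeded 151 and 188 CPM.

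The thin and thick filament partners followed the same pattern. Actg2, the enteric form of smooth muscle actin, was at 2713 against 0.180 CPM in Mural1 and 3844 against 14.9 CPM in Mural2, smooth muscle first here and throughout the smooth muscle genes. Tagln, the actin-bundling protein transgelin, was at 6461 against 41.7 CPM in Mural1 and 7658 against 13.3 CPM in Mural2. The tropomyosins Tpm1 and Tpm2, which lie along the actin filament, were at 3602 against 167 CPM in Mural1 and 3699.7 against 180.4 CPM in Mural2 for Tpm1, and at 3893 against 61.2 CPM in Mural1 and 4985 against 85.0 CPM in Mural2 for Tpm2. Lmod1, a leiomodin that seeds actin filaments, was at 602 against 5.85 CPM in Mural1 and 899 against 7.85 CPM in Mural2, and the crosslinker filamin A, Flna, at 12005 against 451 CPM in Mural1 and 11377 against 676 CPM in Mural2. Synpo2, an actin-bundling protein of the dense bodies, was at 1185 against 31.0 CPM in Mural1 and 1179 against 12.6 CPM in Mural2. Mylk, the kinase itself, was 13.0-fold (12.4 to 13.7) and 7.93-fold (7.66 to 8.21) higher, and Vcl, which ties actin to adhesion plaques, 6.76-fold (6.37 to 7.17) and 5.18-fold (4.97 to 5.4) higher. Smooth muscle and cytoplasmic actins are alike in sequence, and how reads shared by them were assigned is not given in the sources used here, so their separate levels are uncertain.

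The 8 members of the list that were not called included the filament proteins of non-muscle cells. Vim, vimentin, was at 1584 against 1496 CPM in Mural1 and 2897 against 2914 CPM in Mural2, and so near equal on both sides. Cald1, caldesmon, an actin-myosin regulator, was 4.50-fold (4.32 to 4.68) higher in smooth muscle in Mural1 and 3.60-fold (3.51 to 3.70) in Mural2, and missed the 4-fold rule in the second set. The non-muscle myosins Myh9 and Myh10 and the tropomyosin Tpm4 were not called either.

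**Figure D3:**
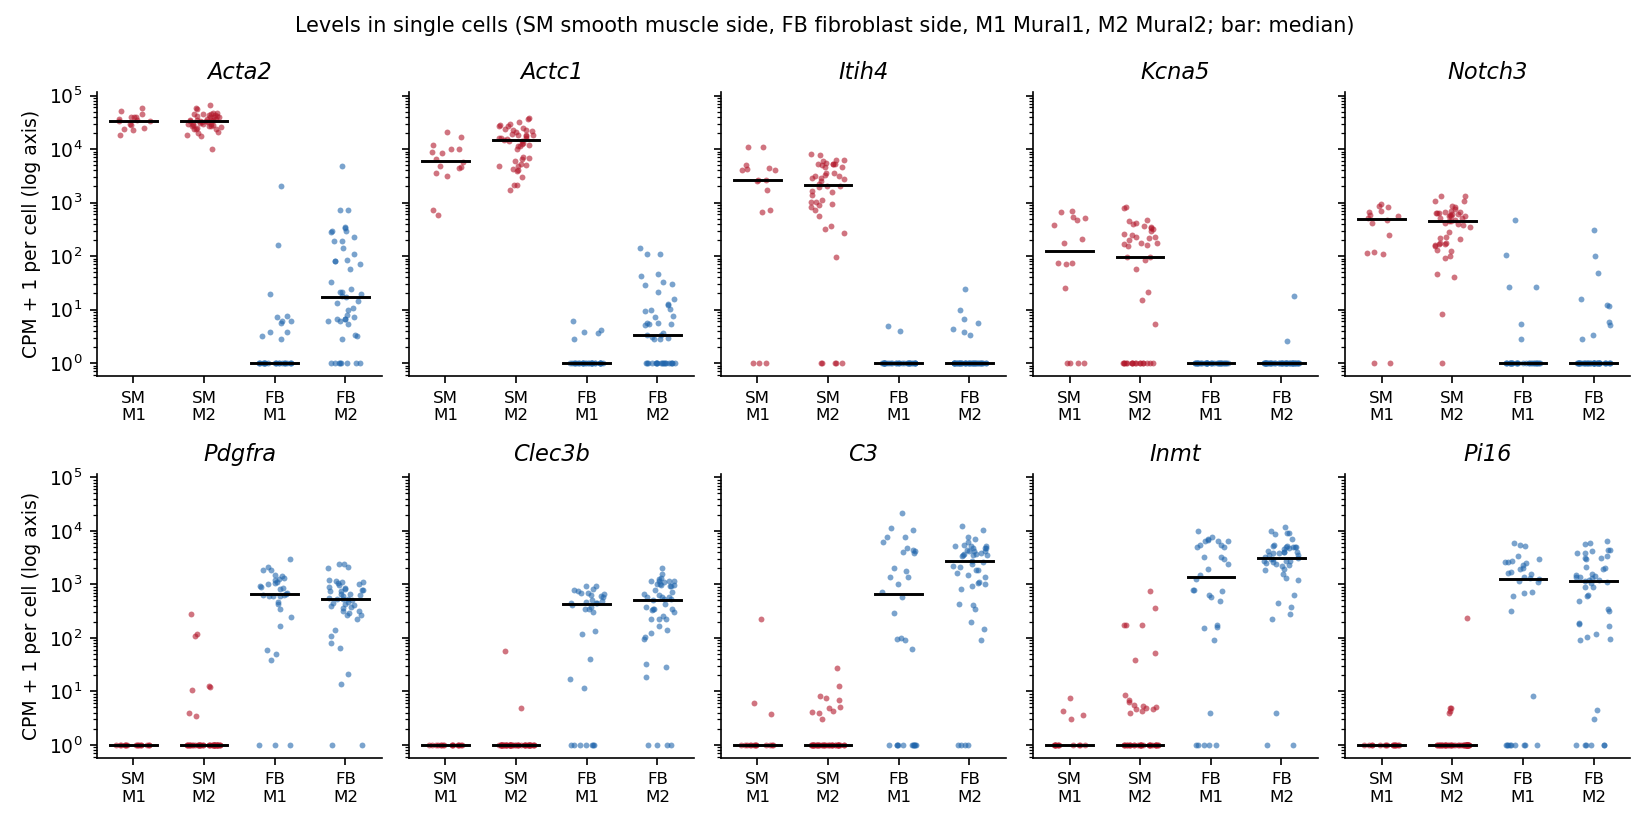
CPM + 1 of 10 genes on log axes in every single cell by side and column set, each point a cell and each bar the median of the group's cells. Acta2 and Actc1 are separated without overlap, whereas Itih4, Kcna5, Notch3, Pdgfra, Clec3b, C3, Inmt and Pi16 are at 0 in some cells of their own side.

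Some of the genes called in smooth muscle encode proteins of striated muscle. They were grouped here after their values were seen, with no list or count behind the grouping. Actc1, cardiac α-actin (chr2:114047282-114053548, minus strand), ranged from 592 to 20542 CPM with a median of 6089 in the smooth muscle cells of Mural1 and from 1697 to 37410.0 CPM with a median of 14651 in those of Mural2. In the fibroblasts its medians were 0 and 2.4 CPM and its highest values 5.04 and 143 CPM. Every smooth muscle cell therefore lay above every fibroblast of its set. The same held for Myom1, myomesin, which links myosin filaments in the M band (chr17:71002633-71126856, plus strand): it ranged from 166 to 997 CPM with a median of 415 in Mural1 and from 54.3 to 1590.2 CPM with a median of 536 in Mural2, with fibroblast maxima of 1.82 and 30.2 CPM. Tcap, the titin cap telethonin, was at 245 against 0 CPM in Mural1 and 292 against 0.872 CPM in Mural2, Sgca, α-sarcoglycan of the dystrophin complex, at 138 against 0 CPM in Mural1 and 91.2 against 0 CPM in Mural2, and Ldb3, a Z-disc protein, at 398 against 1.71 CPM in Mural1 and 234 against 7.61 CPM in Mural2. Sgca had no read in any fibroblast, so that its difference was at least 511-fold in Mural1 and at least 523-fold in Mural2, set against 3 reads per group. Heart muscle genes chosen after these values were seen were low. Myh6, Tnnt2, Tnni3, Myl7 and Nppa lay between 0 and 11.9 CPM in all 4 groups, and the highest of them, Tnnt2 in Mural2 smooth muscle, had a read in 4 of 46 cells after thinning.

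Many genes of the contractile programme carry a CArG box near their start, the site of serum response factor, which works with myocardin. The box was searched for as CC, then 6 bases each A or T, then GG; it reads as the same pattern on both strands. Windows of 300 bases, from 250 before to 50 after each RefSeq gene start in GRCm38.p6, were read. A box was found in 17 of 339 windows (5.01%) of the genes called in smooth muscle, of which 232 of 314 matched the table, and in 5 of 251 windows (1.99%) of the genes called in fibroblasts, of which 201 of 291 matched. Among all tested genes it was in 123 of 9270 windows (1.33%) and among all genes in 535 of 32851 (1.63%). The called contractile genes held it in 5 of 25 windows, from 4 of 22 genes. These are counts of letters with no test, and a match does not show that a factor binds there. The 250 bases before the start are shown for 5 of the smooth muscle genes described here, with the box in capitals. They are shown because these genes span the actin filament, the myosin light chains, the M band and the adhesion plaque. The first base of the box lies 47 bases before the start in Actc1 (chr2:114052876-114053125, minus strand), 99 in Myom1 (chr17:71019307-71019556, plus strand), 161 in Myl9 (chr2:156775214-156775463, plus strand), 50 in Myl6 (chr10:128493010-128493259, minus strand) and 227 in Vcl (chr14:20929148-20929397, plus strand). For Actc1, Myom1, Myl9 and Myl6 the start used lies inside the longer GENCODE gene model. The Myom1 model begins at chr17:71002633, far before the start used here. The 250 bases shown lie wholly inside the model for Actc1, Myom1 and Myl6 and mostly before it for Myl9. Each is written 5′ to 3′ on the strand of its gene.
Actc1: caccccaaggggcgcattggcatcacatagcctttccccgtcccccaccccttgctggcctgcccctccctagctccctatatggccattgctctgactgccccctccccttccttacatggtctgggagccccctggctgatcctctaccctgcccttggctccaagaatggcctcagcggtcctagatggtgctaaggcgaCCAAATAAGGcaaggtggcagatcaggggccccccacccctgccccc
Myom1: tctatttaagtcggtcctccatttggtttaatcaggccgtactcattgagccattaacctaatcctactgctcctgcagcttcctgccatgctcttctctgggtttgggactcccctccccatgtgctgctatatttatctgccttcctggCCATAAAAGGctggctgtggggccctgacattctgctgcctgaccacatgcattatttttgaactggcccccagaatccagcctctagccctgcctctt
Myl9: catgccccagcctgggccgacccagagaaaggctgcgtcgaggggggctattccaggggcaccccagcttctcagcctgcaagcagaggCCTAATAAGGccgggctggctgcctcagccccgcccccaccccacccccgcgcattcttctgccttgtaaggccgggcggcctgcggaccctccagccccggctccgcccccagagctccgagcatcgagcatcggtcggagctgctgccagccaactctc
Myl6: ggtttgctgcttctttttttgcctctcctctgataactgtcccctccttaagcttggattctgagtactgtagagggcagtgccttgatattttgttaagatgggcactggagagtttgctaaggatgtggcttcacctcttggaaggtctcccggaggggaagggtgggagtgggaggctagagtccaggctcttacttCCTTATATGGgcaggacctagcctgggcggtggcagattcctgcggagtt
Vcl: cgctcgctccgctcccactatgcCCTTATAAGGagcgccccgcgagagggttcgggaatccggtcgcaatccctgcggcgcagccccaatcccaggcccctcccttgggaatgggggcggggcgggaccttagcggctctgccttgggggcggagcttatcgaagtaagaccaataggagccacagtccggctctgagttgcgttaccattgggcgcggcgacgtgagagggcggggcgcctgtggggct

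Myl6, the essential myosin light chain made in muscle and non-muscle cells, was at 845 against 58.0 CPM in Mural1 and 734 against 70.7 CPM in Mural2. The smallest difference among the 5 genes was that of Vcl, 5.18-fold in Mural2, and the largest in that set was that of Actc1, 1257-fold. The fibroblast genes with a box were Aspa, Lama2, Lima1, Meg3 and Tiam1.

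Regulators of contraction were higher in smooth muscle in 6 of 22 measured genes and in fibroblasts in none, with median log2 ratios of 2.18 and 1.94. Myocd, the coactivator myocardin, was at 100.4 against 0 CPM in Mural1 and 136 against 3.84 CPM in Mural2. Mrvi1, the inositol trisphosphate receptor partner through which cyclic GMP lowers calcium release, was at 450.2 against 6.30 CPM in Mural1 and 342 against 1.98 CPM in Mural2. Ppp1r14a, the inhibitor CPI-17 of myosin phosphatase, was at 148 against 6.66 CPM in Mural1 and 197 against 11.0 CPM in Mural2. The phosphatase subunits Ppp1r12a, Ppp1r12b and Ppp1cb were the other 3. Srf, Rhoa and Rock1, which act in most cells, were not called, nor were the myocardin relatives listed as Mkl1 and Mkl2.

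Among 30 measured genes of calcium handling and ion channels, 5 were higher in smooth muscle and 1 in fibroblasts (median log2 ratio 0.57 and 1.30). These were 16.7% and 3.33%, beside 3.34% and 3.09% of all tested genes, so the fibroblast count was near the general share. Kcna5, the voltage-gated potassium channel Kv1.5 (chr6:126532551-126535412, minus strand), ranged from 0 to 687 CPM with a median of 125 in Mural1 smooth muscle and from 0 to 817 CPM with a median of 95.7 in Mural2, and had no read in the Mural1 fibroblasts. It was at least 905-fold higher in Mural1 and 389-fold (189 to 969) in Mural2, although single smooth muscle cells had none. Kcnmb1, the subunit that tunes the large-conductance calcium-activated potassium channel, was at 304 against 0 CPM in Mural1 and 419.8 against 0.407 CPM in Mural2. Cacna1c, the L-type calcium channel, was at 417 against 17.5 CPM in Mural1 and 302 against 29.9 CPM in Mural2, Ryr2, a calcium release channel, at 24.0 against 0 CPM in Mural1 and 61.4 against 2.21 CPM in Mural2, and Kcnk3, the acid-sensitive potassium channel TASK-1, at 216 against 5.58 CPM in Mural1 and 316 against 22.3 CPM in Mural2. The channel on the fibroblast side was Kcnj8, the pore of the ATP-sensitive potassium channel, at 186 against 46.3 CPM in Mural1 and 425 against 70.3 CPM in Mural2 in fibroblasts against smooth muscle, a difference of 4.02-fold (3.52 to 4.61) and 6.05-fold (5.65 to 6.49). Without its highest fibroblast the Mural1 difference was 3.09-fold. Its partner Abcc9, the sulfonylurea receptor SUR2, was at 426 against 110.3 CPM in Mural1 and 504 against 119 CPM in Mural2 and missed 4-fold in Mural1, with 3.86-fold (3.54 to 4.22).

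Receptors for vasoactive signals split between the sides, 8 of 39 being higher in smooth muscle and 2 in fibroblasts (median log2 ratio 2.43 and 1.39). The shares were 20.5% and 5.13%, beside 3.34% and 3.09% of all tested genes. P2rx1, an ATP-gated cation channel, was at 1129 against 0 CPM in Mural1 and 705 against 10.8 CPM in Mural2, and was at least 4182-fold higher in Mural1, where no fibroblast held a read, and 65.2-fold (56.4 to 75.8) in Mural2. Adra1d, the α1D-adrenergic receptor, was at 118 against 0.0900 CPM in Mural1 and 152 against 0.116 CPM in Mural2. The nitric oxide receptor, soluble guanylate cyclase, was higher in both subunits: Gucy1a3 was at 766 against 142 CPM in Mural1 and 552 against 34.2 CPM in Mural2 and Gucy1b3 at 415 against 35.4 CPM in Mural1 and 483 against 4.94 CPM in Mural2. Of the endothelin receptors, Ednrb was called, at 279.9 against 0.0900 CPM in Mural1 and 335 against 25.1 CPM in Mural2. Ednra was not, at 392 against 155 CPM in Mural1 and 245 against 153 CPM in Mural2. Within 2 other receptor families members lay on opposite sides. The sphingosine-1-phosphate receptor S1pr3 was higher in smooth muscle, at 462 against 58.2 CPM in Mural1 and 238 against 55.7 CPM in Mural2. The S1pr3 call was lost when the highest smooth muscle cell of each set was left out. S1pr2 was higher in fibroblasts, at 124 against 0.762 CPM in Mural1 and 140.0 against 32.9 CPM in Mural2, fibroblasts first. Ramp1, which shapes the receptor for calcitonin gene-related peptide, was at 489.9 against 21.3 CPM in Mural1 and 259 against 16.0 CPM in Mural2 in smooth muscle against fibroblasts, whereas Ramp2, which shapes the adrenomedullin receptor, was at 186 against 9.53 CPM in Mural1 and 208 against 33.7 CPM in Mural2 in fibroblasts against smooth muscle.

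Of 30 measured genes of basement membrane and cell adhesion, 10 were higher in smooth muscle and 5 in fibroblasts (median log2 ratio 0.53 and 0.87). The laminins divided by chain. Lama5 was at 276 against 9.81 CPM in Mural1 and 203 against 9.07 CPM in Mural2, smooth muscle first, and Lama2 at 577 against 37.5 CPM in Mural1 and 831 against 94.4 CPM in Mural2 and Lamb1 at 233 against 40.0 CPM in Mural1 and 257 against 30.4 CPM in Mural2, fibroblasts first. The type IV collagen chains Col4a3 and Col4a4, which form the specialised network of alveolar and glomerular membranes, were also on the fibroblast side, at 92.5 against 1.91 CPM in Mural1 and 84.9 against 4.94 CPM in Mural2 for Col4a3, and at 106 against 0 CPM in Mural1 and 101 against 1.02 CPM in Mural2 for Col4a4. Col18a1, the source of endostatin, was at 1704 against 113 CPM in Mural1 and 929 against 74.9 CPM in Mural2 with smooth muscle first. Itga8 and its ligand nephronectin, Npnt, were both called in smooth muscle, at 2195 against 93.7 CPM in Mural1 and 1401 against 46.0 CPM in Mural2 for Itga8, and at 638 against 141 CPM in Mural1 and 422 against 44.5 CPM in Mural2 for Npnt. So were Itga7, Itga1, Itga5 and Itgb3, the adhesion molecule Mcam at 1672 against 35.0 CPM in Mural1 and 824 against 18.3 CPM in Mural2 and T-cadherin, Cdh13, at 1066 against 26.5 CPM in Mural1 and 1129 against 70.2 CPM in Mural2. Cdh11, a cadherin of mesenchyme, was the remaining fibroblast gene.

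Other genes among the 12 with the highest folds in smooth muscle were of varied kinds. Itih4, a heavy chain of the inter-α-trypsin inhibitor family (chr14:30886476-30902353, plus strand), ranged from 0 to 10797 CPM with a median of 2621 in Mural1 smooth muscle and from 0 to 8134 CPM with a median of 2134 in Mural2. No fibroblast exceeded 3.89 CPM in Mural1 or 23.0 CPM in Mural2, but the sides overlapped at 0 because single smooth muscle cells had no read. Timp4, an inhibitor of matrix metalloproteinases, was at 828 against 0 CPM in Mural1 and 707 against 0.988 CPM in Mural2. Ppp1r3b, which targets a phosphatase to glycogen, was at 118 against 0 CPM in Mural1 and 262 against 0.0581 CPM in Mural2. Parm1, a mucin-like membrane protein, was at 118 against 0 CPM in Mural1 and 78.7 against 0.0581 CPM in Mural2, and Syt15, of the synaptotagmin family, at 93.9 against 0 CPM in Mural1 and 60.8 against 0.116 CPM in Mural2.

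In fibroblasts, 12 of 30 measured collagen and proteoglycan genes were higher and none in smooth muscle, Dcn and Col1a1 of the selection rule among the 12, with median log2 ratios of -2.12 and -1.72. The medians include those 2 genes. Without them 10 of 28 were higher in fibroblasts, and the list took 5.27% and 4.73% of fibroblast reads and 1.41% and 1.00% of smooth muscle reads. Col1a2, the partner chain of Col1a1, ranged from 2468 to 23338 CPM with a median of 8695 in Mural1 fibroblasts and from 385 to 2193 CPM with a median of 1269 in smooth muscle, without overlap, and from 1622 to 29482 CPM with a median of 9068 against a range from 8.37 to 2024 CPM with a median of 731 in Mural2, where the ranges overlapped. The difference was 7.62-fold (7.43 to 7.82) and 11.6-fold (11.4 to 11.9), so that smooth muscle also held fibrillar collagen transcripts. Col3a1, the type III chain, was at 13358 against 1900.2 CPM in Mural1 and 12504 against 979.9 CPM in Mural2, fibroblasts first here and in the next paragraphs. Lum and Fmod, small proteoglycans that steer fibril growth, were at 2364 against 0.572 CPM in Mural1 and 888 against 29.0 CPM in Mural2 for Lum, and at 1403 against 0.762 CPM in Mural1 and 99.6 against 0.863 CPM in Mural2 for Fmod. Col14a1, which binds fibril surfaces, was at 1227 against 61.2 CPM in Mural1 and 1842 against 38.4 CPM in Mural2, and Pcolce, which speeds the trimming of procollagen, at 1658 against 128 CPM in Mural1 and 1465 against 65.1 CPM in Mural2. The type VI chains Col6a1, Col6a2 and Col6a3, biglycan (Bgn) and the crosslinking enzymes Lox and Loxl1 were not called.

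Elastic fibre and microfibril genes were higher in fibroblasts in 9 of 18 and in smooth muscle in none (median log2 ratio -2.23 and -2.91). Mfap4 and Mfap5, microfibril proteins, were at 4018 against 324 CPM in Mural1 and 4252 against 135 CPM in Mural2 for Mfap4, and at 1757 against 37.7 CPM in Mural1 and 1263 against 19.1 CPM in Mural2 for Mfap5. The fibulin Fbln1 was at 2586 against 14.1 CPM in Mural1 and 2649.8 against 16.6 CPM in Mural2. Mgp, matrix Gla protein, an inhibitor of calcification, was at 25841 against 4075 CPM in Mural1 and 17838 against 2371 CPM in Mural2. Efemp1, fibulin-3, had no read in any smooth muscle cell and was at 149 and 86.4 CPM in fibroblasts, at least 261-fold and at least 367-fold higher. Many Mural1 fibroblasts held no Efemp1 read either, and its call was lost when the highest fibroblast of each set was left out. Elastin itself, Eln, was not called: its level was 4499.9 against 1648 CPM in Mural1 and 1331 against 934 CPM in Mural2 in smooth muscle against fibroblasts.

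Proteases and inhibitors were higher in fibroblasts in 7 of 27 and in smooth muscle in 3 (median log2 ratio -1.51 and -1.79). Mmp2, gelatinase A, was at 2337 against 61.7 CPM in Mural1 and 2184 against 18.3 CPM in Mural2. The metalloproteinase inhibitors Timp1 and Timp2 were at 451 against 45.5 CPM in Mural1 and 607 against 23.8 CPM in Mural2 for Timp1, and at 2503 against 520.3 CPM in Mural1 and 2548 against 558 CPM in Mural2 for Timp2, on the side opposite to Timp4. Serping1, the C1 inhibitor, was at 6355 against 466 CPM in Mural1 and 9221 against 387 CPM in Mural2. Adamts8 and Adam33 were the smooth muscle proteases, Adamts8 being at 475 against 48.2 CPM in Mural1 and 118 against 6.34 CPM in Mural2 with smooth muscle first.

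Complement genes were on the fibroblast side in 8 of 16 and on the smooth muscle side in none, with median log2 ratios of -3.77 and -4.58. C3, the central component (chr17:57203970-57228136, minus strand), ranged from 0 to 21207 CPM with a median of 645 in Mural1 fibroblasts and from 0 to 12124 CPM with a median of 2711 in Mural2, a wide spread that includes cells with no read. In smooth muscle its median was 0 in both sets and its highest value 219.6 and 26.1 CPM. C7, of the membrane attack complex, was at 1313 against 0 CPM in Mural1 and 2703 against 5.49 CPM in Mural2 and at least 2297-fold and 492-fold (389 to 631) higher. C2, a protease of the classical pathway, was at 356 against 0.191 CPM in Mural1 and 481 against 0.314 CPM in Mural2. Cfb, Cd55, C1ra and Serping1 were also called. Clu, clusterin, was not called, at 2947 against 4565 CPM in Mural1 and 91.0 against 2539.7 CPM in Mural2. Its cell medians were higher in smooth muscle, at 7.05 against 3832 CPM in Mural1 and 0 against 1882 CPM in Mural2. Without cells that held 3 or more chondrocyte markers, the levels were 166 against 4335 CPM in Mural1 and 91.0 against 2560 CPM in Mural2. That choice of cells was made after the data were seen.

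Chemokines and cytokines were higher in fibroblasts in 5 of 25 and in smooth muscle in none (median log2 ratio -0.79 and -1.18). Ccl11, eotaxin, was at 778 against 10.7 CPM in Mural1 and 1563 against 0.0784 CPM in Mural2. Il33, an alarmin that acts on innate lymphoid cells, was at 310.4 against 0.191 CPM in Mural1 and 226 against 3.53 CPM in Mural2, and Ackr3, a scavenger receptor of Cxcl12, at 393 against 2.67 CPM in Mural1 and 247 against 3.53 CPM in Mural2. Ccl8 had no read in smooth muscle and was at 65.3 and 131 CPM in fibroblasts. Cxcl16 was the other gene called.

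Lipid and retinoid genes were higher in fibroblasts in 12 of 32 and in smooth muscle in none (median log2 ratio -3.42 and -1.94). Inmt, an indolamine methyltransferase abundant in lung, ranged from 0 to 9965 CPM with a median of 1369 in Mural1 fibroblasts and from 0 to 11905 CPM with a median of 3141 in Mural2, and its median in smooth muscle was 0 in both sets. Adh1, an alcohol dehydrogenase that oxidises retinol, was at 585 against 0.191 CPM in Mural1 and 852 against 2.75 CPM in Mural2. Apod, the lipid carrier apolipoprotein D, was at 2157 against 0.953 CPM in Mural1 and 220.2 against 1.73 CPM in Mural2. A single Mural1 fibroblast held 82.8% of the Apod reads of its group, whose level was 386 CPM without it, and the cell medians were 116 and 148 CPM. Rbp4, Aldh1a1, Cyp1b1, Pltp, Lpl, Lrp1, Abca8a, Abca8b and Abca9 were also called.

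Growth factors, their receptors and binding proteins were higher in fibroblasts in 9 of 42 and in smooth muscle in 4 (median log2 ratio -2.29 and -3.24). Pdgfra, the platelet-derived growth factor receptor α (chr5:75152292-75198215, plus strand), ranged from 0 to 2941 CPM with a median of 670.3 in Mural1 fibroblasts and had no read in the 16 smooth muscle cells, a difference of at least 1499.7-fold. In Mural2 it ranged from 0 to 2414 CPM with a median of 539.6 in fibroblasts, with a median of 0 in smooth muscle, and was 50.5-fold (43.1 to 59.7) higher. Pdgfrb, whose promoter drives the reporter, was not called, at 1022 against 846 CPM in Mural1 and 534 against 664 CPM in Mural2 in smooth muscle against fibroblasts. The insulin-like growth factor genes divided by member. Igf1 was at 694 against 0.572 CPM in Mural1 and 386 against 2.51 CPM in Mural2 and Igfbp6 at 1148 against 0 CPM in Mural1 and 1063 against 23.5 CPM in Mural2 with fibroblasts first. Igfbp5 was at 802 against 181 CPM in Mural1 and 1102 against 66.6 CPM in Mural2 with smooth muscle first. The Igfbp5 call was lost when the highest smooth muscle cell of each set was left out. Neurotrophin 3, Ntf3, and its receptor Ntrk3 were both higher in smooth muscle, at 267 against 21.3 CPM in Mural1 and 246 against 40.6 CPM in Mural2 for Ntf3, and at 298 against 29.9 CPM in Mural1 and 268 against 5.52 CPM in Mural2 for Ntrk3, and so was the R-spondin receptor Lgr6, at 188 against 3.06 CPM in Mural1 and 332 against 0.291 CPM in Mural2. Gli1, a target and effector of hedgehog signalling, was at 82.2 against 6.67 CPM in Mural1 and 118 against 9.57 CPM in Mural2 with fibroblasts first. Fgf7, Figf (Vegfd), Wnt5a, Dkk3 and Igfbp4 were the other fibroblast genes.

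In the TGFβ and BMP list 2 of 30 genes were called on each side (median log2 ratio 0.08 and -0.02). Each count was 6.67%, beside 3.34% of all tested genes in smooth muscle and 3.09% in fibroblasts. Bmp3 and Inhba were higher in smooth muscle, Bmp3 being at 235 against 0.810 CPM in Mural1 and 222 against 16.2 CPM in Mural2, and Bmp4 and the BMP antagonist Nbl1 in fibroblasts, at 199.8 against 0 CPM in Mural1 and 126 against 5.57 CPM in Mural2 for Bmp4, and at 1407 against 33.0 CPM in Mural1 and 905 against 34.3 CPM in Mural2 for Nbl1. The Notch list had 3 of 18 genes on the smooth muscle side and none on the other (median log2 ratio 1.51 and 0.59). Notch3, the receptor of arterial smooth muscle, ranged from 0 to 934 CPM with a median of 493 in Mural1 smooth muscle and from 0 to 478 CPM with a median of 0 in fibroblasts, and from 0 to 1339 CPM with a median of 456 against a range from 0 to 309 CPM with a median of 0 in Mural2, so that single cells of the sides overlapped. Its summed level was 22.0-fold (19.2 to 25.3) and 74.9-fold (61.9 to 91.6) higher. The Notch targets Heyl and Hey2 were at 1192 against 199 CPM in Mural1 and 598 against 94.3 CPM in Mural2 for Heyl, and at 100.2 against 11.7 CPM in Mural1 and 87.1 against 20.0 CPM in Mural2 for Hey2.

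Of 48 measured transcription factors, 1 (2.08%, beside 3.34% of all tested), Heyl, was a smooth muscle gene. Fibroblast genes numbered 4 (8.33%, beside 3.09%), and the median log2 ratio was -0.11 and -0.13. Only 34 of the 48 were tested, so these shares of measured genes run low beside shares of tested genes. Meox2, a mesodermal homeobox factor, was at 233 against 0 CPM in Mural1 and 344 against 6.75 CPM in Mural2, fibroblasts first, and Hic1, a zinc finger factor of mesenchymal progenitors, at 141 against 0 CPM in Mural1 and 63.0 against 0.314 CPM in Mural2. Tcf21, a factor of lung mesenchyme, was at 116 against 5.33 CPM in Mural1 and 119 against 16.3 CPM in Mural2, and Prrx2 was the other. Foxf1, a forkhead factor of lung mesenchyme, was at 29.9 against 30.0 CPM in Mural1 and 38.1 against 41.2 CPM in Mural2, with no difference past the rule. In the guidance and surface protein list, 6 of 33 were on the fibroblast side and 2 on the smooth muscle side (median log2 ratio -1.73 and -0.87). The shares were 18.2% and 6.06%, beside 3.09% and 3.34% of all tested genes. Cd34, a sialomucin also known from blood progenitors and endothelium, had no read in Mural1 smooth muscle and was at 1931 against 0 CPM in Mural1 and 1758 against 20.0 CPM in Mural2. Ly6a, Ly6c1, Pdpn, Entpd2 and Ntn1 were the other fibroblast genes. Cspg4, which encodes NG2 and whose promoter drives the dsRed reporter of the labelled cross, was at 1237 against 141 CPM in Mural1 and 666 against 54.4 CPM in Mural2 with smooth muscle first, and Sema5a was the other smooth muscle gene.

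The other leading fibroblast genes were mostly at or near 0 in smooth muscle. Clec3b, the plasminogen-binding lectin tetranectin (chr9:123150946-123157432, plus strand), ranged from 0 to 943 CPM with a median of 425 in Mural1 fibroblasts and from 0 to 2015 CPM with a median of 518 in Mural2. No smooth muscle cell of Mural1 had a read of it, and the highest of Mural2 was at 56.1 CPM. Gdf10, a BMP3-related factor, was at 945 against 0 CPM in Mural1 and 1110.4 against 4.47 CPM in Mural2, Dact1, a modulator of WNT signalling, at 213 against 0 CPM in Mural1 and 159.6 against 0.314 CPM in Mural2, and Tmem119, a membrane protein, at 388 against 0.381 CPM in Mural1 and 172 against 0.235 CPM in Mural2. Flrt2, an adhesion protein that binds guidance receptors, had no read in any smooth muscle cell and was at 211 and 174 CPM in fibroblasts. Nkain4 likewise had none, with 171 and 85.2 CPM in fibroblasts, and Ms4a4d was at 389 against 0 CPM in Mural1 and 259 against 0.314 CPM in Mural2.

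Among lists of general cell functions, the energy metabolism list was near the share of all tested genes. Of its 38 genes 1 (2.63%, beside 3.34% of all tested), the creatine kinase Ckb, was higher in smooth muscle, at 495 against 115 CPM in Mural1 and 684 against 93.6 CPM in Mural2, although the list's median log2 ratio was 0.98 and 0.80. Only 28 of the 38 energy genes were tested. Stress and immediate-early genes were higher in smooth muscle in 7 of 30 and in fibroblasts in none (median 1.19 and 1.32). The 7 were not of one kind. Hspb1, Hspb6 and Hspb7 are small heat shock proteins abundant in muscle, and Hspb6 was at 918 against 10.7 CPM in Mural1 and 749.8 against 16.5 CPM in Mural2. Atf3, a stress-induced factor, was at 523 against 102 CPM in Mural1 and 3099 against 112 CPM in Mural2, and Hspa1a, an inducible chaperone with the near-identical neighbour Hspa1b, at 504 against 65.6 CPM in Mural1 and 1381 against 48.0 CPM in Mural2. Fosb and Myc were the others. In Mural1 the call of 4 of the 7 rested on 1 cell. Without the highest smooth muscle cell the Mural1 level was 94.1 CPM for Atf3, below 4-fold and no longer higher than in fibroblasts, and the difference was 3.02-fold for Hspa1a, 3.83-fold for Fosb and 3.91-fold for Myc. In the antigen presentation and interferon list 1 of 24 (4.17%, beside 3.09% of all tested), Ifi27l2a, was higher in fibroblasts, and 22 of the 24 were tested.

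**Figure D4:**
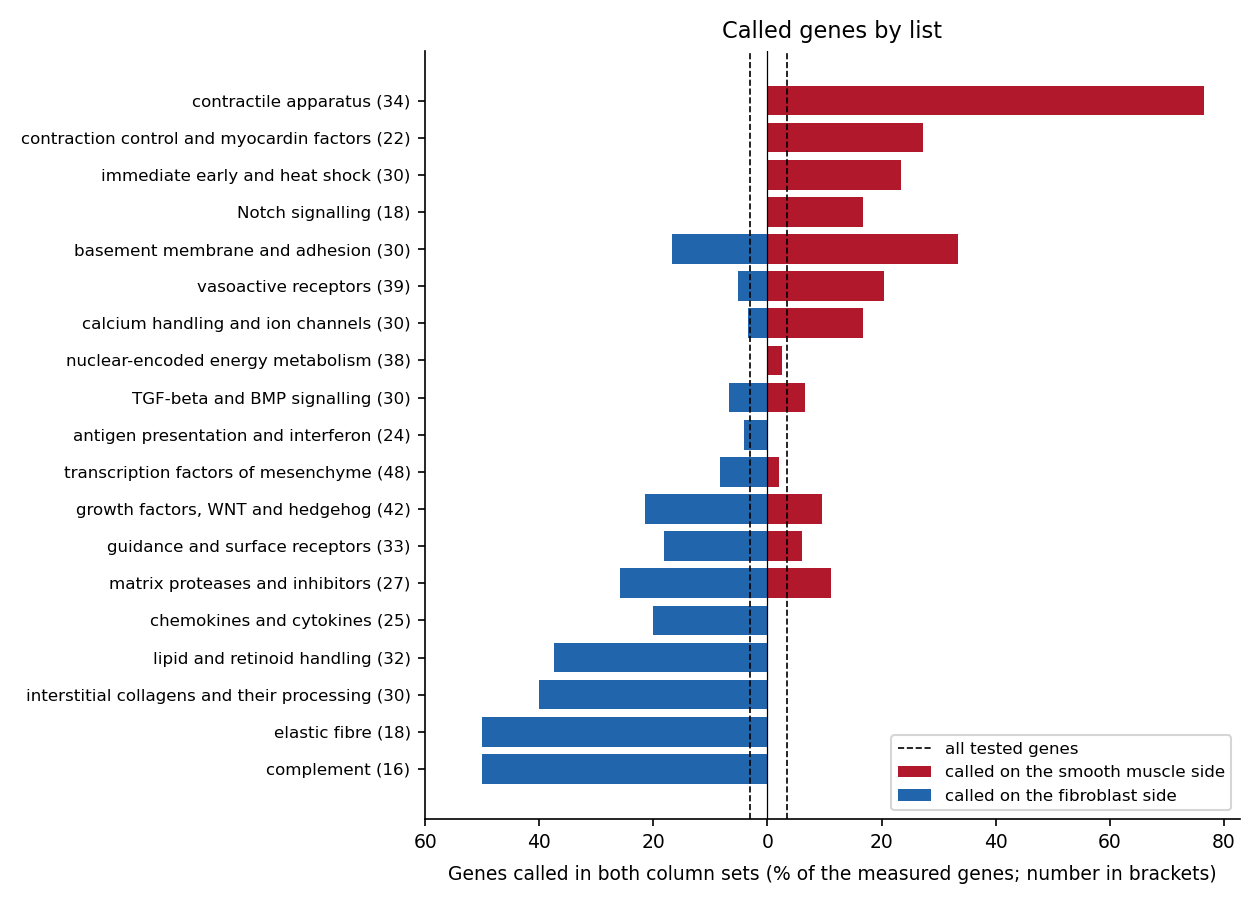
Percent of the measured genes of each functional list that were called higher in smooth muscle (bars to the right) and in fibroblasts (bars to the left), with dashed lines at the shares of all tested genes, 3.34% and 3.09%. The contractile list stands far out on the smooth muscle side with 26 of 34. The complement and elastic fibre lists do so on the fibroblast side with 8 of 16 and 9 of 18. Genes of the selection rule are counted in the bars. Without Myh11 and Cnn1 the contractile count is 24 of 32, and without Dcn and Col1a1 the collagen count is 10 of 28.

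Markers of known subtypes were unevenly spread. On the smooth muscle side, 5 of 8 vascular and 2 of 6 airway smooth muscle markers were higher than in fibroblasts, leaving out the genes of the selection here and in the next lists. The airway markers called were Lgr6 and Actc1, whereas Hhip, a hedgehog-binding protein, was at 179 against 0.191 CPM in Mural1 and 438 against 1.33 CPM in Mural2 in fibroblasts against smooth muscle. It was not called, since the share of fibroblasts with a read was 23.5% and 43.8%. Sost, sclerostin, the 1 smooth muscle marker not called, was read in 18.8% and 23.9% of the smooth muscle cells and in no fibroblast. Pericyte markers left in the selection were higher in smooth muscle in 4 of 7, namely Gucy1a3, Cspg4, Kcnk3 and Notch3. Of the pericyte genes of the selection, Cox4i2 also passed the rule, and the 3 others, Higd1b, Trpc6 and Lamc3, were at most at 20.7 CPM in any group. Of the chondrocyte markers 1 of 9, Sox6, was higher in smooth muscle. None of the endothelial, alveolar type 2, airway epithelial, alveolar type 1, leukocyte, mesothelial, glial, red cell and cycling markers was called on either side. On the fibroblast side, 9 of 13 adventitial, 3 of 8 myofibroblast and 3 of 13 alveolar fibroblast markers were higher than in smooth muscle. The alveolar ones were Inmt, Tcf21 and Figf, and 2 further alveolar markers, Npnt and Itga8, were on the smooth muscle side.

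Most single fibroblasts held reads of Pi16, of the adventitial list, and Inmt, of the alveolar list, together. Pi16, a marker of adventitial fibroblasts, ranged from 0 to 5940.0 CPM with a median of 1269 in Mural1 and from 0 to 6324 CPM with a median of 1129 in Mural2. After thinning, Pi16 was read in 24 of 34 fibroblasts of Mural1 and 40 of 48 of Mural2, and Inmt in 28 and 45. Both were read in the same cell in 24 and 38. Every Pi16 cell of Mural1 thus also held Inmt after thinning, and 2 of Mural2 did not. Inmt was read in most fibroblasts, so most Pi16 cells would hold it even if the genes were unrelated. Pi16 and Col4a4 were read together in 13 and 21 cells, Pi16 without Col4a4 in 11 and 19, and Col4a4 without Pi16 in 0 and 1. Npnt, also of the alveolar list, was read together with Pi16 in 4 and 5 cells. Pi16 was read without Npnt in 20 and 35, and Npnt without Pi16 in 4 and 5. Col4a4 and Gli1 are in neither list, and Il33 is in the adventitial one. Pi16 and Gli1 were together in 13 and 30 cells, and Pi16 and Il33 in 15 and 23. These pairs were chosen after their values were seen, and a read missing at this depth does not show that the transcript is absent. In smooth muscle, Lgr6 and Ednrb were read together in 7 of 16 and 24 of 46 cells, Lgr6 alone of the pair in 6 and 9, and Ednrb alone in 1 and 6.

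On the same side, stress genes and transcripts of other cell types differed between the column sets. Counted by the fold and the share of cells, 137 genes (1.46%) were higher in Mural1 smooth muscle and 224 (2.38%) in Mural2 smooth muscle, and 64 (0.680%) and 104 (1.11%) in the fibroblasts. Stress and immediate-early genes were higher in Mural2 in 4 of 30 in smooth muscle and in 3 in fibroblasts, and in Mural1 in none. In smooth muscle Atf3 was at 523 CPM in Mural1 and 3099 CPM in Mural2, with cell medians of 4.86 and 2822 CPM, and Dnajb1, a chaperone partner, at 114 and 563 CPM. In fibroblasts Nr4a1, an immediate-early receptor, was at 52.1 and 889 CPM, and at 31.2 and 864 CPM without the highest cell of each group. The alveolar type 2 and leukocyte markers given above were also higher in Mural2, on both sides, and their part in these differences was not tested. Sftpa1, a surfactant protein, was at 0.572 and 118 CPM in smooth muscle and at 5.4 and 137 CPM in fibroblasts. Cd74, of antigen-presenting cells, was at 8.91 and 539 CPM in fibroblasts, and 1 cell held 78.8% of its Mural2 reads.

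Further genes differed between the sets without belonging to those lists. In smooth muscle Rgs4, a regulator of G protein signalling, was at 0.191 CPM in Mural1 and 142 CPM in Mural2, and Gja1, connexin 43, at 0.191 and 185 CPM. After thinning Rgs4 was read in 0% (binomial interval 0 to 20.6%) of the cells of Mural1 and 37.0% (binomial interval 23.2 to 52.5%) of Mural2, and Gja1 in 0% (binomial interval 0 to 20.6%) and 30.4% (binomial interval 17.7 to 45.8%). Adamts8 went the other way, at 475 and 118 CPM. In fibroblasts Mmp3, stromelysin, was at 327 and 4315 CPM, or at 167 and 4079 CPM without the highest cell of each group, and was read in 23.5% (binomial interval 10.7 to 41.2%) and 87.5% (binomial interval 74.8 to 95.3%) of the cells. Among fibroblasts the smooth muscle gene Actc1 was read in 0% (binomial interval 0 to 10.3%) of those of Mural1 and 29.2% (binomial interval 17.0 to 44.1%) of those of Mural2 after thinning. These cells were unevenly placed on the plates. In Mural2, after thinning, 10 of 13 fibroblasts from plate rows O and P held an Actc1 read and 4 of 35 from the other rows. Actg2 was read in 8 of 13 and 4 of 35. Before thinning the counts were 13 of 13 and 16 of 35 for Actc1 and 13 of 13 and 8 of 35 for Actg2. The summed Actc1 level was 28.7 CPM in those rows and 7.87 CPM in the others. The other smooth muscle genes looked at were not all placed alike. After thinning, Myh11, capped by the selection, was read in 1 of 13 and 5 of 35, and Cnn1 in 1 of 13 and 4 of 35. Acta2 was read in 9 of 13 and 18 of 35 after thinning and in 13 of 13 and 27 of 35 before it. Its summed level was 98.9 CPM in rows O and P and 183 CPM in the others. The part of the plate position was not tested, and the rows were chosen after their values were seen. Which reporter, animal or plate each column set came from is not given, so set and source cannot be told apart.

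Some levels of the Mural1 fibroblasts moved when cells with cartilage transcripts were left out. Without the 4 fibroblasts that held 3 or more chondrocyte markers, Cytl1, a secreted protein of cartilage, went from 1503 to 197 CPM in Mural1, beside 0.930 CPM in Mural2. Clu went from 2947 to 166 CPM beside 91.0 CPM. Fmod went from 1403 to 232 CPM beside 99.6 CPM. Other genes kept more of their level: Aspn, the proteoglycan asporin, went from 656 to 526 CPM beside 77.9 CPM, and Col8a1, a type VIII collagen chain, from 357 to 192 CPM beside 13.1 CPM. This selection of cells was made after the data were seen.

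**Figure D5:**
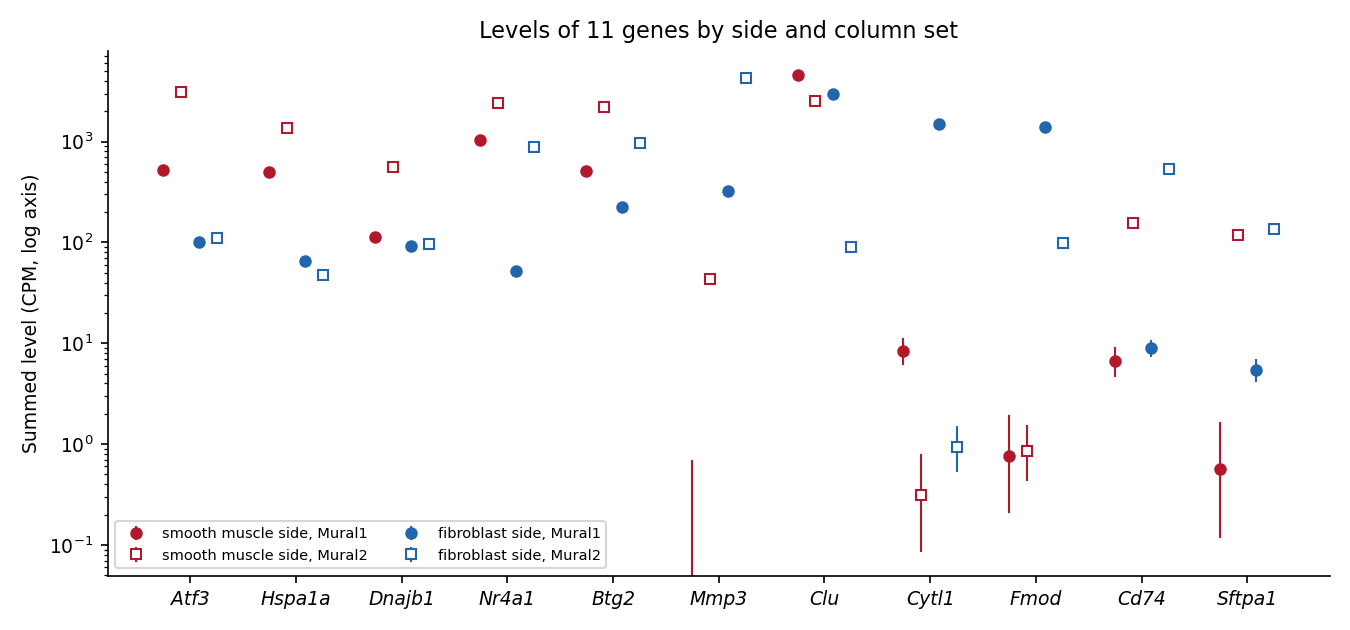
Summed level in CPM of 11 genes by side and column set, on a log axis, with 95% exact Poisson intervals that cover counting error only. Compared with the same side of the other set, Mmp3 is higher in Mural2 fibroblasts and Atf3 and Dnajb1 in Mural2 smooth muscle. Cytl1 and Clu are higher in Mural1 fibroblasts than in Mural2 fibroblasts. Clu is nevertheless highest in smooth muscle within each set, at 4565 against 2947 CPM in Mural1 and 2540 against 91.0 CPM in Mural2, smooth muscle first. Mmp3 in Mural1 smooth muscle had no read, and its upper limit alone is drawn.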

How the data were processed

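Single cells of lungs of C57BL/6 reporter mice were sequenced by SMART-seq2. The authors deposited 2 tables, one of raw counts and one of normalized scores, with a row for each gene. Reads were aligned with STAR 2.4.2a to mm10, per the submitters' processing notes. Which program counted the reads, its annotation and any filter on cells are not given in the sources used here, nor is the handling of strand or of reads shared by near-identical genes. The deposited scores were, on checking, reads times 500000 over the column total, rounded (largest difference 0.499996), and served as an alternative.

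Cells were selected on CPM computed from the deposited counts, by the rule given at the start. The Mural1 and Mural2 columns carry no sample title, so each side in each column set was treated as 1 sample, no test was run and no model of replicates was fitted. Raw counts were summed per side and set and divided by the summed reads. The number of reads per group set the level that a count of 0 allows, 3 reads, equal to 0.572, 0.270, 0.235 and 0.174 CPM in Mural1 smooth muscle, Mural1 fibroblasts, Mural2 smooth muscle and Mural2 fibroblasts. Tested genes had a mean of at least 10 CPM over the 4 groups. Calls needed 4-fold in both sets and a read in at least 25% of the higher side's cells after each was thinned to 50000 reads (random seed 1). Intervals are Poisson for levels and conditional binomial for ratios. The script was checked on simulated counts with known changes.

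The members and the gene lists were chosen with earlier results of these data known. Genes named by rule were the 12 with the largest smaller-of-2-sets fold in each direction, leaving out the 11 selection genes, predicted, ribosomal and mitochondrially encoded genes (10 of the smooth muscle and 6 of the fibroblast calls), up to 4 members of each list, and the markers. Gene positions are from GENCODE vM21, where 20785 of 21948 symbols matched. Promoter windows are from RefSeq on GRCm38.p6, the patched form of mm10. Python 3.11.15, numpy 2.4.6, pandas 2.3.3 and scipy 1.17.1 were used, with edgeR 4.0.16 and DESeq2 1.42.0 in R 4.3.3 for scaling factors only. The alternatives were other scalings, folds, filters, selections of cells and each column set alone.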

Additional observations from a re-analysis of the deposited data

Results flagged for a closer look

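In 9 tested genes that met the 4-fold and share rule in 1 column set or both, the sides differed by at least 4-fold the other way in the other set, and these differences between the sets were not tested. Log2 ratios of smooth muscle to fibroblasts are given, Mural1 first, with a side without reads set to 3 reads, with the summed levels of smooth muscle against fibroblasts. Only Asun and Lyst also met the share of cells in both sets. Asun, which encodes a protein of cell division, had log2 ratios of -2.10 and 3.44, at 15.6 against 66.8 CPM in Mural1 and 51.1 against 4.71 CPM in Mural2. Lyst, a regulator of lysosome traffic, had ratios of -3.17 and 2.22, at 4.57 against 41.2 CPM in Mural1 and 67.3 against 14.4 CPM in Mural2.

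Of the others, 3 were higher in fibroblasts in Mural1 and in smooth muscle in Mural2. The fibroblast growth factor receptor Fgfr2 had log2 ratios of -2.17 and 2.26, at 14.7 against 66.2 CPM in Mural1 and 42.8 against 8.95 CPM in Mural2. The phosphoglucomutase Pgm2 had ratios of -6.63 and 2.91, at 0 against 56.7 CPM in Mural1 and 47.1 against 6.28 CPM in Mural2, and Synrg, of membrane traffic, had ratios of -3.34 and 3.07, at 1.91 against 19.3 CPM in Mural1 and 58.7 against 6.98 CPM in Mural2. In Mural1 these 3 were read, after thinning, in 14.7%, 20.6% and 17.6% of the fibroblasts, so that few cells set the level.

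The remaining 4 were higher in smooth muscle in Mural1 and in fibroblasts in Mural2. Emid1 had log2 ratios of 2.71 and -2.46, at 23.6 against 3.60 CPM in Mural1 and 2.27 against 12.5 CPM in Mural2. The muscle enolase Eno3 had ratios of 5.43 and -2.70, at 31.1 against 0.720 CPM in Mural1 and 2.43 against 15.8 CPM in Mural2. Nadsyn1, the last enzyme of NAD synthesis, had ratios of 6.74 and -3.85, at 28.8 against 0 CPM in Mural1 and 0.863 against 12.4 CPM in Mural2. After thinning, Emid1, Eno3 and Nadsyn1 were read in 10.4%, 12.5% and 6.25% of the Mural2 fibroblasts. Each was read in 25% of the Mural1 smooth muscle cells, so that few cells set these levels too. The class II antigen presentation gene H2-Eb1 had ratios of 3.20 and -3.37, at 2.48 against 0.180 CPM in Mural1 and 20.6 against 212 CPM in Mural2. Its Mural1 levels rest on 13 and 2 reads, and 1 cell held 82.1% of its reads in the Mural2 fibroblasts, whose level was 38.6 CPM without it. Leukocyte markers summed to 577 CPM there, or 246 CPM without their highest cell, against 15.9 CPM in Mural1 fibroblasts. Their part in the difference was not tested.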

How the results depend on the processing

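With the rule as reported, 314 genes were higher in smooth muscle and 291 in fibroblasts. Counts moved by more than 1.5 times with the fold, with no minimum share of cells (fibroblasts) and with a single column set, except smooth muscle in Mural2 alone. A fold of 2 gave 742 and 565 genes and a fold of 8 gave 177 and 186. Without the minimum share of cells there were 441 and 498, in Mural1 alone 711 and 607, and in Mural2 alone 470 and 480. Each of these settings loosens or tightens the rule itself. Scaling by edgeR's TMM gave 271 and 325 genes and by DESeq2's median ratios 276 and 323, and moved the median log2 ratio of all tested genes from 0.10 and 0.20 to -0.06 and -0.04 and to -0.03 and -0.02. Over 182 called genes of the rule for naming and the lists and 21 alternatives, the call was lost in 126 of the gene values. A fold of 8 kept 62 of 89 smooth muscle and 68 of 93 fibroblast calls. Many of the alternatives could not turn a direction. Alternatives added after the data were seen left out cells with 3 or more chondrocyte markers (313 and 308 genes) or alveolar type 2 markers (312 and 292), or the highest cell of each gene's higher side (242 and 248). Leaving out cells with endothelial or leukocyte markers gave 330 and 305. Levels below about 1 CPM rest on a few reads. No paired analysis was possible because the columns carry no replicate numbers and no test was run.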
